A study of Mus musculus with 6 samples.

Results

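Macrophages and CD8+ conventional dendritic cells (cDC) of mouse spleen were compared across all named genes of an Illumina bead array. The comparison took in 4 of the 6 arrays of the series and the 19057 genes with a named probe, each represented by the probe with the highest mean over the 6 arrays. The groups were macrophages (replicates 1 and 2) and CD8+ cDC (replicates 1 and 2), both from spleen of strain C57/B6, with no treatment, time or further genotype in the labels. The other 2 arrays, of CD8- cDC, entered only through the estimate of the spread between replicates. The sources used here do not give the isolation of the cells or the mice's age or sex. The labels do not say whether replicates came from separate animals, so a p-value reflects only how these arrays vary, which may be technical.

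Splenic macrophages clear aged red cells, dying cells and blood-borne particles, and those of the red pulp return the iron of haem to the body. CD8+ cDC also take up dying cells, but are known for moving their antigens onto MHC class I for CD8 T cells, a process called cross-presentation, and for a programme that depends on the transcription factors Batf3 and Irf8. Both cell types ingest, digest and present, so genes at a like high level in both are as much a part of the comparison as genes that differ.

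Values are log2 signals as deposited, and a difference is the macrophage mean minus the CD8+ cDC mean on the log2 scale, given with a standard error (SE). Calls rest on an adjusted p under 0.05 from limma, corrected by Benjamini and Hochberg over all 45281 probes. A gene was counted as shared when the 95% interval of its difference lay within 1 log2 of 0 and both group means were in the highest 10% of genes, above 10.13 in macrophages and 10.09 in CD8+ cDC. Shared does not mean equal, and a gene could be both shared and called, so counts of a list can overlap. The background level was 5.25 log2, taken from probes of sensory receptor and hair keratin-associated genes. Where an array of the dimmer group was at or under it, the fold is given as a minimum for the group means. Against 1 array of the dimmer group alone the fold can be smaller. Between 15802 and 15827 probes lay above the background level on an array. Replicates correlated at 0.966 in macrophages and 0.972 in CD8+ cDC. Each group rested on n = 2, which limits the precision.

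Libraries of each group stood apart in ways that touch the results. CD8+ cDC replicate 2 held more signal of macrophage genes than replicate 1: the mean level of 20 red pulp macrophage genes was 12.53 and 12.61 log2 in macrophages, against 7.31 and 9.22 log2 in CD8+ cDC. Macrophage replicate 1 held more signal of dendritic cell and lymphocyte genes than replicate 2. The mean of 35 genes common to cDC was 7.64 and 6.75 log2 in macrophages, against 9.70 and 9.70 log2 in CD8+ cDC, and that of 15 T cell markers was 6.62 and 5.32 log2 in macrophages, against 6.34 and 5.73 log2 in CD8+ cDC. For T cell markers CD8+ cDC replicate 1 was above replicate 2 as well, and other lists had replicate 1 higher in both groups. B cell markers had 7.37 and 6.47 log2 in macrophages, against 7.76 and 6.94 log2 in CD8+ cDC. Plasmacytoid dendritic cell markers had 8.23 and 7.16, against 9.17 and 8.11, and immediate early and stress genes 9.14 and 8.51, against 9.76 and 8.94. In bulk RNA, fewer cells of a type and less RNA per cell cannot be told apart. The part of these libraries in the results was not tested. Each list below has the range of its counts or its median over 4 fits that each left out 1 of the 4 arrays. The lists were chosen with earlier results of these data known, so their counts and medians are descriptions.

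**Figure D1:**
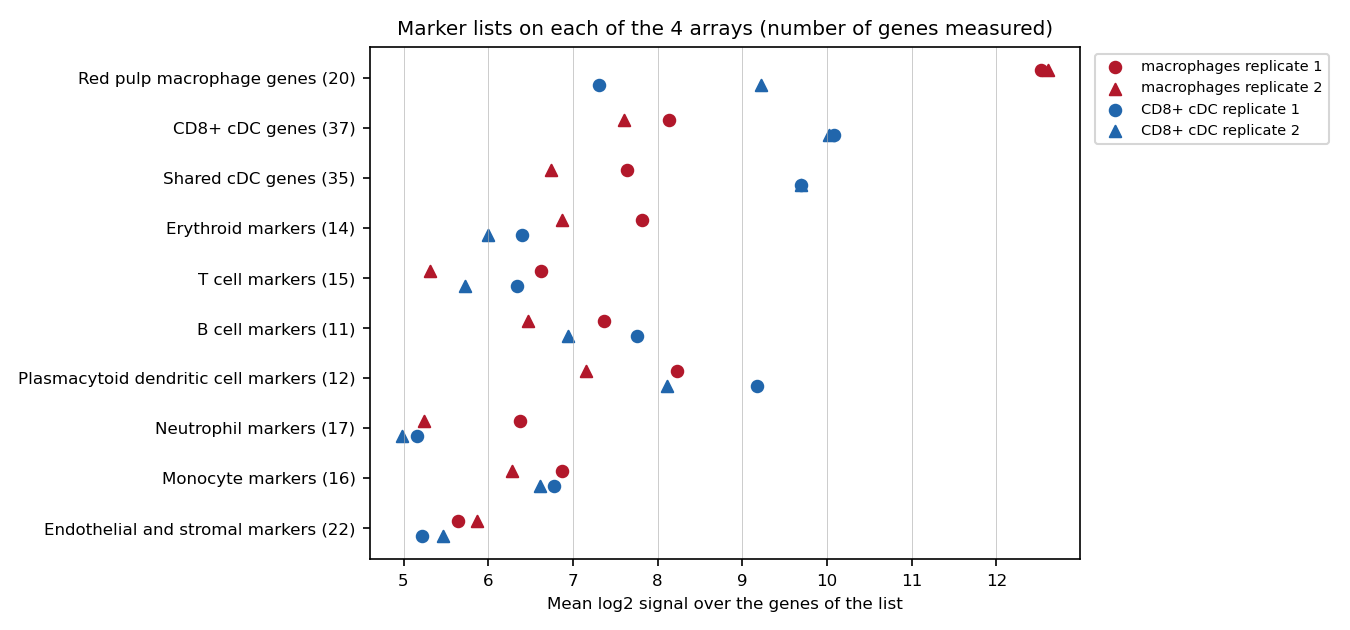
Mean log2 signal of 10 marker lists (vertical axis, with the number of genes measured) on each of the 4 arrays; macrophages are drawn above CD8+ cDC in each row, circles are replicate 1 and triangles replicate 2. Red pulp macrophage genes were at 7.31 and 9.22 on the CD8+ cDC arrays, and macrophage replicate 1 was above replicate 2 for T cell (6.62 and 5.32), erythroid (7.81 and 6.87) and neutrophil (6.38 and 5.24) markers.

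Across all genes, 1249 were higher and 1001 lower in macrophages. These were 6.55% and 5.25% of the genes tested, 11.8% together, and the median difference of all genes was 0.0017. Counts in the lists below are to be set beside these shares. The share called was under 11.8% in oxidative phosphorylation (6.52%), mitosis (7.89%) and sterol synthesis (10.5%). It was above that in ribosomal proteins (12.7%), translation factors (16.7%) and genes of the endoplasmic reticulum (16.7%). Differences of at least 16-fold were mostly higher in macrophages, 119 genes against 22 lower. For 284 of the genes called higher, both CD8+ cDC arrays were at background, and for 167 of those called lower both macrophage arrays were. Of the called genes, 372 of the higher (29.8%) and 153 of the lower (15.3%) were called in all 4 fits without 1 array, fits in which 1 group has a single array and its spread is taken from the others. Another 252 of the higher and 291 of the lower were called in none of these fits. Of the 185 called genes named in the text, 79 kept the call in all 4 fits, 92 in 1 to 3 of them and 14 in none. Of 1352 called genes with more than 1 probe, all probes were called the same way for 253, and for 7 genes probes were called in both directions. For Arsb, Ddx58, Fabp5, Fcer2a, Lgals9, Ly75, Tgfbr2, Zbtb46 and Zeb1, described below, a dimmer probe had the opposite sign and no call. Without CD8+ cDC replicate 1, 499 higher and 235 lower calls were kept, and without replicate 2, 593 and 244. Without macrophage replicate 1, 879 higher and 637 lower calls were kept, and without replicate 2, 619 and 407.

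**Figure D2:**
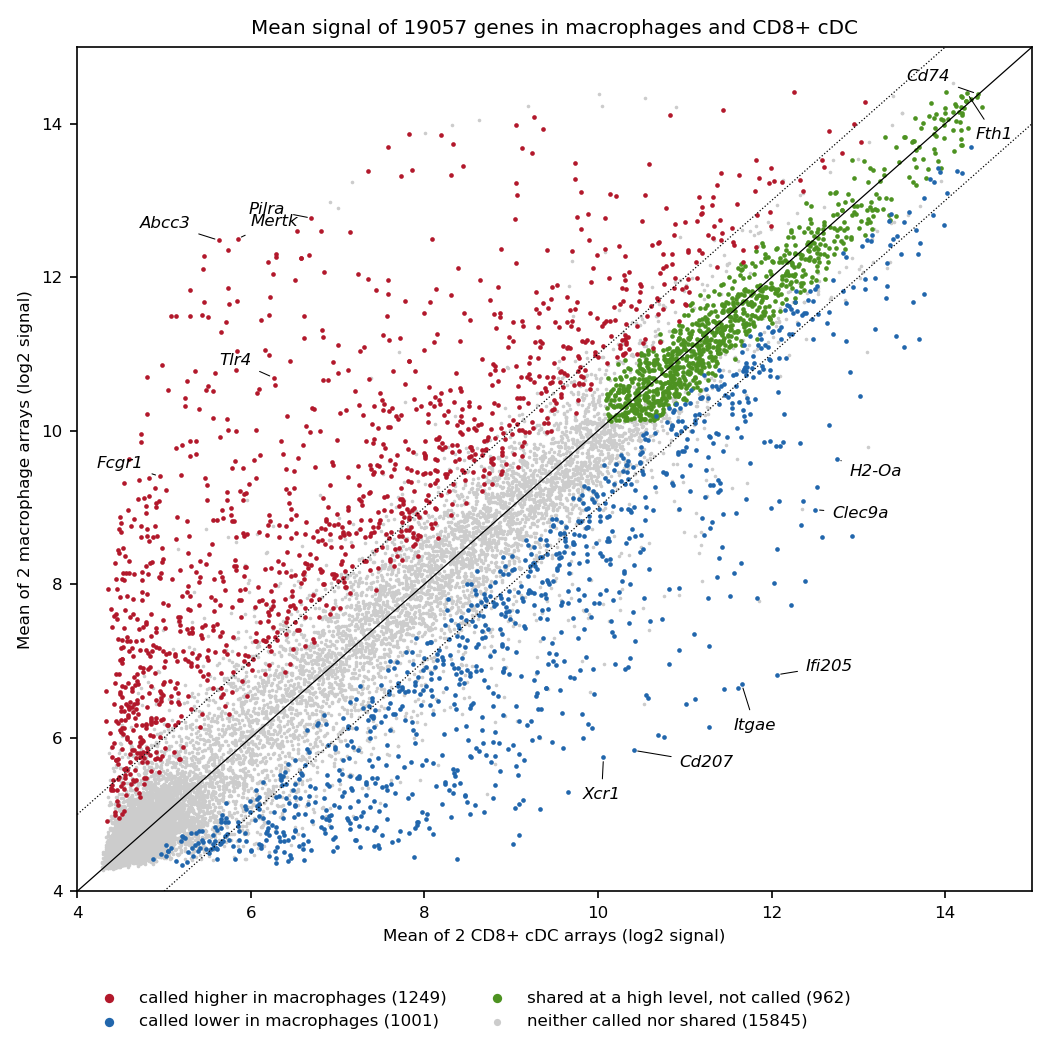
Mean log2 signal of each of the 19057 genes in macrophages (vertical axis) against CD8+ cDC (horizontal axis); the solid line marks equal signal and the dotted lines a difference of 1 log2. Genes called higher in macrophages (1249) reach from the background level of CD8+ cDC up to their high levels, and 962 genes that were shared and not called lie along the line at the upper right.

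The genes that mark the labelled cell types differed as the labels say, with exceptions. Of 7 defining genes of macrophages that were measured, 5 were higher, 0 lower and 2 not called. Their median difference was 4.83, and 3.95 to 5.71 without 1 array. Mertk, a receptor for dying cells, had 12.46 and 12.54 log2 in macrophages, against 4.60 and 7.09 log2 in CD8+ cDC. Its signal was at least 80.5-fold higher in macrophages over the group means (adjusted p = 0.0306). CD8+ cDC replicate 2 was clearly above replicate 1, and against replicate 2 alone Mertk was 5.41 log2 higher in macrophages. It was called in none of the 4 fits without 1 array, with an adjusted p of 0.0569 to 0.132. Adgre1, which encodes the macrophage surface protein F4/80, had 13.78 and 13.58 log2 in macrophages, against 8.39 and 9.86 log2 in CD8+ cDC, a difference of 4.55 (SE 0.48, adjusted p = 0.0102). Both macrophage arrays were far above both CD8+ cDC arrays. Fcgr1, the high-affinity IgG receptor, had 9.03 and 9.78 log2 in macrophages, against 4.71 and 5.18 log2 in CD8+ cDC, at least 17.8-fold higher in macrophages. On the other side, Itgae, the alpha chain of CD103, had 7.83 and 5.56 log2 in macrophages, against 11.68 and 11.63 log2 in CD8+ cDC, a difference of -4.96 (SE 0.77, adjusted p = 0.0261). Ifi205, of the interferon-inducible p200 family, had 7.71 and 5.93 log2 in macrophages, against 12.10 and 12.02 log2 in CD8+ cDC, a difference of -5.24 (SE 0.64, adjusted p = 0.014). The CD8+ cDC arrays were close to each other for both genes, and the macrophage arrays lay lower and far apart, replicate 1 above replicate 2.

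Of 11 defining genes of CD8+ cDC that were measured, 6 were lower in macrophages (1 to 6 without 1 array). The chemokine receptor gene Xcr1 had 6.31 and 5.18 log2 in macrophages, against 10.10 and 10.02 log2 in CD8+ cDC, at least 19.5-fold lower in macrophages. Clec9a, a receptor for exposed actin of dead cells, had 9.24 and 8.70 log2 in macrophages, against 12.41 and 12.60 log2 in CD8+ cDC, a difference of -3.53 (SE 0.21, adjusted p = 0.00297), and was called in all 4 fits without 1 array. Ly75, which encodes the endocytic receptor DEC-205, was at least 6.16-fold lower. Cadm1, a cell adhesion gene used as a marker of these cells, was shared, with 11.73 and 11.91 log2 in macrophages, against 11.62 and 11.76 log2 in CD8+ cDC and an interval of -0.70 to 0.96. The arrays of the groups overlapped for it. The transcription factor genes Batf3 (-0.82, adjusted p = 0.0892) and Irf8 (-0.88, adjusted p = 0.204) were not called. Cd8a itself was at background on both macrophage arrays and on CD8+ cDC replicate 2, at 4.49 and 4.33 log2 in macrophages and 5.67 and 4.96 log2 in CD8+ cDC, while Cd8b1, which encodes the beta chain, was lower in macrophages (-1.57, adjusted p = 0.01). Flt3, the receptor for the growth factor of cDC, was low on all 4 arrays, at 5.11 and 4.64 log2 in macrophages and 6.0005 and 4.94 log2 in CD8+ cDC. Probes for Cd68 and Wdfy4 were not among those named.

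**Figure D3:**
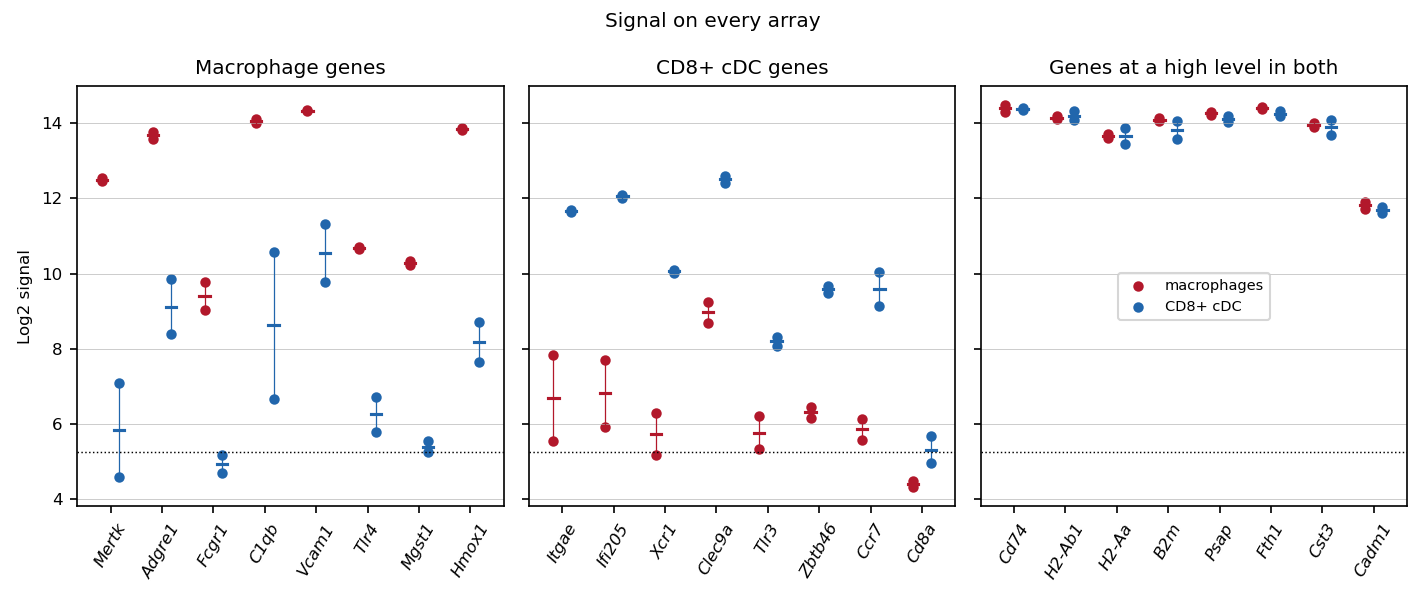
Log2 signal (vertical axis) of 24 genes on every array, macrophages left of CD8+ cDC; points are arrays, short bars group means and the dotted line the background level of 5.25. CD8+ cDC replicates lie far apart for C1qb (6.68 and 10.57), macrophage replicates for Itgae (7.83 and 5.56), and the 8 genes on the right lie at like levels in both groups.

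Among 37 genes described for CD8+ cDC, 20 were lower in macrophages and 1 was higher (4 to 21 lower and 1 higher without 1 array), with a median difference of -2.34, against 0.0017 over all genes. Members of the list were chosen with earlier results of these data known, so its median describes the list and is no test. Tlr11, a Toll-like receptor for microbial profilin, had 7.90 and 7.78 log2 in macrophages, against 11.18 and 11.87 log2 in CD8+ cDC, a difference of -3.68 (SE 0.25, adjusted p = 0.00401). Cd207, which encodes langerin, was at least 21.1-fold lower, Notch4 was lower (-4.49), and Septin3 at least 23.9-fold. Gpr33, a chemoattractant receptor-like gene, was at least 10.8-fold lower. Tlr11 and Gpr33 kept their call in all 4 fits without 1 array. The one gene of the list that was higher in macrophages was Pdlim4, a cytoskeletal adaptor, with 10.78 and 11.02 log2 in macrophages, against 7.45 and 8.19 log2 in CD8+ cDC. Mpeg1, which encodes the pore-forming protein perforin-2, and Ifngr1, the binding chain of the interferon gamma receptor, were shared, with differences of -0.20 and -0.28.

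Of 35 genes common to cDC, 25 were lower in macrophages and 1 was higher (2 to 24 lower and 1 higher without 1 array). The median difference was -2.94, with -3.60 when macrophage replicate 1 was left out and -2.25 without replicate 2. Of 5 defining genes of all cDC 4 were lower, with 2 when either CD8+ cDC array was left out, 4 without macrophage replicate 1 and 3 without replicate 2. Zbtb46, a transcription factor gene that marks them, had 6.17 and 6.47 log2 in macrophages, against 9.68 and 9.49 log2 in CD8+ cDC, a difference of -3.26 (SE 0.14, adjusted p = 0.00188). Ccr7, the receptor that guides cDC to T cell areas, had 6.14 and 5.58 log2 in macrophages, against 10.04 and 9.15 log2 in CD8+ cDC, a difference of -3.73 (SE 0.35, adjusted p = 0.00764). In both genes the groups lay more than 2 log2 apart, and both kept the call in all 4 fits. The lymphocyte attenuator gene Btla (-4.34), the transcription factor gene Mycl (-4.30) and the growth factor receptor gene Kit (-3.29) were also lower. Dpp4, which encodes the peptidase CD26, had 10.19 and 8.34 log2 in macrophages, against 12.50 and 12.55 log2 in CD8+ cDC, and macrophage replicate 1 was nearly 2 log2 above replicate 2. Dok2, an adaptor that damps signalling from tyrosine kinases, was the one gene higher in macrophages, at least 10.6-fold.

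The 15 called genes with the lowest differences and no overlap between groups also included genes outside these lists. The arrays of the groups did not overlap for 9548 genes, 50.1% of all, so separation alone is common here. Serpinf1, a secreted serpin, had 7.44 and 4.85 log2 in macrophages, against 11.20 and 11.35 log2 in CD8+ cDC, at least 30.5-fold lower in macrophages. Arhgap22, a GTPase-activating protein, had 7.31 and 5.96 log2 in macrophages, against 11.15 and 11.74 log2 in CD8+ cDC, a difference of -4.81 (SE 0.49, adjusted p = 0.00949). Gp2, which encodes a receptor for bacterial fimbriae, had 6.43 and 5.60 log2 in macrophages, against 10.35 and 11.17 log2 in CD8+ cDC, a difference of -4.75 (SE 0.51, adjusted p = 0.0106). Macrophage replicate 1 was the higher of the 2 in each of them, most clearly in Serpinf1. Ffar4, a receptor for long-chain fatty acids, was lower (-4.57), as were the sorting nexin gene Snx22 (-4.60) and, at least 14.3-fold and in all 4 fits, the autophagy gene Atg9b.

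Among the 15 highest, Abcc3, a transporter of organic anions, had 12.23 and 12.74 log2 in macrophages, against 4.71 and 6.55 log2 in CD8+ cDC, at least 95.6-fold higher in macrophages (adjusted p = 0.0168). C6, which encodes a component of the membrane attack complex, had 11.97 and 12.58 log2 in macrophages, against 4.64 and 6.27 log2 in CD8+ cDC, at least 91.2-fold higher. Hcar2, a receptor for niacin and beta-hydroxybutyrate, had 11.81 and 11.92 log2 in macrophages, against 5.09 and 6.38 log2 in CD8+ cDC, at least 66.2-fold higher. In each gene CD8+ cDC replicate 1 was at background and replicate 2 above it. Apoc1 (at least 63.9-fold), the synaptic scaffold gene Rims3 (6.07), the vesicle membrane gene Scamp5 (at least 53-fold) and Paqr9 (at least 63.9-fold), of the progestin and adipoQ receptor family, were in the same range. Hcar2 and Paqr9 were called in all 4 fits without 1 array, and C6 in none.

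Of 20 red pulp macrophage genes, 10 were higher in macrophages and none lower (3 to 7 higher without 1 array), with a median difference of 4.66 and 3.68 to 5.76 without 1 array. Itgad, an integrin alpha chain, had 13.59 and 13.80 log2 in macrophages, against 6.33 and 8.84 log2 in CD8+ cDC, a difference of 6.11 (SE 0.998, adjusted p = 0.0298). Spic, the transcription factor gene needed for red pulp macrophages, had 14.03 and 14.14 log2 in macrophages, against 8.37 and 10.14 log2 in CD8+ cDC, a difference of 4.83 (SE 0.66, adjusted p = 0.0186). Adgre4, a relative of Adgre1, had 10.24 and 9.78 log2 in macrophages, against 5.37 and 6.11 log2 in CD8+ cDC, a difference of 4.27 (SE 0.29, adjusted p = 0.00401), and Epor, the erythropoietin receptor, was at least 8.23-fold higher. Adgre4 and Epor kept the call in all 4 fits without 1 array. Several of the largest differences of the list were not called. C1qb, a chain of the first complement component, had 14.01 and 14.10 log2 in macrophages, against 6.68 and 10.57 log2 in CD8+ cDC, a difference of 5.43 (SE 1.46, adjusted p = 0.11). Cd163, the receptor for haptoglobin-bound haemoglobin, had 12.89 and 13.08 log2 in macrophages, against 5.61 and 8.21 log2 in CD8+ cDC, a difference of 6.08 (SE 1.25, adjusted p = 0.0552). Slc40a1, which encodes the iron exporter ferroportin, had 14.25 and 14.19 log2 in macrophages, against 9.45 and 12.36 log2 in CD8+ cDC, a difference of 3.31 (SE 1.28, adjusted p = 0.249). Macrophages were higher on both arrays in all 3, and CD8+ cDC replicate 2 was more than 2 log2 above replicate 1.

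Among 29 haem and iron genes, 8 were higher, none lower and 3 shared (4 to 6 higher without 1 array). Hmox1, the enzyme that opens the haem ring, had 13.83 and 13.88 log2 in macrophages, against 7.66 and 8.72 log2 in CD8+ cDC, a difference of 5.67 (SE 0.93, adjusted p = 0.0302), but was called in none of the 4 fits without 1 array, where its adjusted p was 0.0997 to 0.147. The next enzymes of haem breakdown, the biliverdin reductases Blvrb (4.39) and Blvra (2.23), were higher as well. Slc48a1, which exports haem from the phagosome, had 12.46 and 12.25 log2 in macrophages, against 9.18 and 9.64 log2 in CD8+ cDC, a difference of 2.95 (SE 0.18, adjusted p = 0.00332), and Trf, which encodes transferrin, had 14.06 and 14.16 log2 in macrophages, against 10.56 and 11.11 log2 in CD8+ cDC, a difference of 3.27 (SE 0.25, adjusted p = 0.00494). Slc48a1, Trf, Blvra and the haemopexin receptor gene Lrp1 (4.61) were called in all 4 fits. The ferritin subunits that store the iron were shared: Fth1 had 14.44 and 14.36 log2 in macrophages, against 14.32 and 14.19 log2 in CD8+ cDC with an interval of -0.09 to 0.39, and Ftl1 an interval of 0.13 to 0.74. Both macrophage arrays lay just above both CD8+ cDC arrays in Fth1, within that narrow interval.

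Receptors for dying cells divided between the populations. Of 31 genes of apoptotic cell clearance 9 were higher and 4 lower in macrophages (4 to 7 higher and 2 to 4 lower without 1 array), with a median of 0.23. Timd4, a receptor for phosphatidylserine, had 10.36 and 11.23 log2 in macrophages, against 5.33 and 6.33 log2 in CD8+ cDC, a difference of 4.97 (SE 0.72, adjusted p = 0.0219). Gas6, which encodes a ligand that bridges phosphatidylserine to Mertk, was at least 6.97-fold higher in macrophages, and the scavenger receptor Stab2 (5.33) and the integrin chain Itgb5 (5.22) were higher. Havcr2, which encodes the receptor TIM-3, had 9.86 and 9.83 log2 in macrophages, against 12.26 and 12.39 log2 in CD8+ cDC, a difference of -2.48 (SE 0.12, adjusted p = 0.0021). P2ry6, a receptor for uridine nucleotides, had 9.43 and 8.12 log2 in macrophages, against 12.33 and 12.34 log2 in CD8+ cDC, a difference of -3.56 (SE 0.44, adjusted p = 0.0143). Mfge8, which encodes another bridging protein, was lower (-2.06). Elmo1, of the engulfment signalling complex, was shared (-0.06), while its relative Elmo2 was lower (-1.02). Gas6, Lrp1 and Havcr2 were called in all 4 fits without 1 array, and Timd4 in none.

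Of 15 Fc receptor genes 6 were higher in macrophages and none lower (2 to 6 higher and 0 to 2 lower without 1 array). Fcgr3, a low-affinity IgG receptor, had 12.10 and 12.40 log2 in macrophages, against 5.49 and 7.68 log2 in CD8+ cDC, a difference of 5.67 (SE 0.79, adjusted p = 0.0194). Fcer2a, which encodes the low-affinity IgE receptor and also marks B cells, was higher (1.72) in all 4 fits. In the complement list of 29 genes, 7 were higher and 2 lower, but without CD8+ cDC replicate 1 none was called, and without 1 of the other arrays 2 or 3 were higher and 0 or 1 lower. C2, of the classical pathway, had 12.13 and 12.47 log2 in macrophages, against 5.30 and 7.27 log2 in CD8+ cDC, a difference of 6.01 (SE 0.90, adjusted p = 0.0238), and Cfb, its counterpart in the alternative pathway, was at least 11.3-fold higher. C2 was called in none of the 4 fits without 1 array. Of 19 scavenger receptor genes 5 were higher and 1 lower (1 to 6 higher and 1 lower without 1 array), with 1 higher when either CD8+ cDC array was left out. Of 8 marginal zone macrophage genes 5 were higher and 1 lower, and without 1 array 1 to 3 were higher and 1 lower, with 1 higher without CD8+ cDC replicate 1 and 2 without replicate 2. Marco, a scavenger receptor of the marginal zone, had 10.40 and 10.63 log2 in macrophages, against 5.64 and 5.48 log2 in CD8+ cDC, a difference of 4.96 (SE 0.45, adjusted p = 0.00734). Siglec1, the sialic acid receptor of metallophilic macrophages, had 7.93 and 8.55 log2 in macrophages, against 4.44 and 5.14 log2 in CD8+ cDC, at least 7.92-fold higher and in all 4 fits. Cd209e, a lectin related to DC-SIGN, went the other way, at least 6.21-fold lower.

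The antigen-presenting machinery was split between shared and lower genes. Among 19 genes of MHC class II presentation, 8 were lower, none higher and 7 shared (1 to 6 lower without 1 array). H2-Aa and H2-Ab1, genes of chains that carry peptide to the surface, were shared. H2-Aa had 13.71 and 13.61 log2 in macrophages, against 13.45 and 13.87 log2 in CD8+ cDC, with an interval of -0.45 to 0.45, and H2-Ab1 had 14.18 and 14.11 log2 in macrophages, against 14.08 and 14.31 log2 in CD8+ cDC, with an interval of -0.38 to 0.28. Cd74, the invariant chain, had 14.30 and 14.48 log2 in macrophages, against 14.34 and 14.41 log2 in CD8+ cDC, with an interval of -0.24 to 0.27. The arrays of the groups overlapped in all 3 genes.

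A regulator of class II and genes that act in editing its peptides were lower in macrophages. Ciita, the master regulator of class II transcription, had 10.05 and 9.56 log2 in macrophages, against 12.06 and 12.12 log2 in CD8+ cDC, a difference of -2.29 (SE 0.19, adjusted p = 0.00624), in all 4 fits without 1 array. H2-Oa, a chain of the DO protein that restrains peptide editing, had 10.43 and 8.83 log2 in macrophages, against 12.65 and 12.85 log2 in CD8+ cDC, a difference of -3.13 (SE 0.53, adjusted p = 0.0328), and its partner H2-Ob had 8.97 and 7.58 log2 in macrophages, against 11.67 and 11.62 log2 in CD8+ cDC, a difference of -3.37 (SE 0.46, adjusted p = 0.018). Both DO genes had every CD8+ cDC array above every macrophage array by more than 1 log2. The DM genes, whose protein exchanges the invariant chain fragment for peptide, differed less: H2-DMa (-0.80), H2-DMb1 (-1.05) and H2-DMb2 (-1.20). H2-DMa and H2-DMb2 were called in none of the 4 fits without 1 array. H2-Eb2, a poorly studied beta chain gene, was lower (-2.88), whereas its neighbour in the family H2-Eb1 was shared (-0.46). Probes of such related genes can share target RNA.

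Promoters of class II genes are shown because genes on either side of this split share the Y box, an element of class II promoters. Sequences are those of RefSeq on GRCm38.p6, from 250 bases before to 50 after the start of transcription, 5′ to 3′ in the direction of the gene, with GATTGG, the core of that element, in capitals on either strand (CCAATC on the other).
H2-Aa: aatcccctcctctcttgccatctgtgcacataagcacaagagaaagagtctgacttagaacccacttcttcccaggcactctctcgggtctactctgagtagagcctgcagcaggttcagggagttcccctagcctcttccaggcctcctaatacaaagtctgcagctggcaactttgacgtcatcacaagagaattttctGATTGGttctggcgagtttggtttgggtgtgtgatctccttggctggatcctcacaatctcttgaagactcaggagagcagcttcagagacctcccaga
H2-Eb1: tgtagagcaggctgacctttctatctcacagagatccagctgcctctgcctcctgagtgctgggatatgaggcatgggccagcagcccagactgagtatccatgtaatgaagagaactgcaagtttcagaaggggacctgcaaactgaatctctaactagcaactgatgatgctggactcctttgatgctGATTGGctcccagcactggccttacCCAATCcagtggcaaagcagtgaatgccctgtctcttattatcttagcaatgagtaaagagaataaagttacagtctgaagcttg
H2-Oa: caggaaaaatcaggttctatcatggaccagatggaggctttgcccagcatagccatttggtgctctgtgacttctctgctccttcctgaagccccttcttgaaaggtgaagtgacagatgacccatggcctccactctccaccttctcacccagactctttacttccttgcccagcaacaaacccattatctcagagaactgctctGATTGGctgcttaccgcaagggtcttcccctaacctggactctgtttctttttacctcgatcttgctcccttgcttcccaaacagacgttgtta
H2-DMb1: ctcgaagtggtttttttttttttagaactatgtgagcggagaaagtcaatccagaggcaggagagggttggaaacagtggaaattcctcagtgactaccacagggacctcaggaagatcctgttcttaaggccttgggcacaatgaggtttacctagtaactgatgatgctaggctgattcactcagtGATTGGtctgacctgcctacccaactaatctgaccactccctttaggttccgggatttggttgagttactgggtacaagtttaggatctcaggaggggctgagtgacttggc
H2-Aa lies at chr17:34287774-34288073 on the minus strand, H2-Eb1 at chr17:34305617-34305916, H2-Oa at chr17:34092129-34092428 and H2-DMb1 at chr17:34152941-34153240, these 3 on the plus strand. Of 9 class II genes searched, 8 were in the table and all 8 held the motif, as did 16.1% of the 32851 promoters of the table. H2-Aa and H2-Eb1 were shared, and H2-Oa and H2-DMb1 were lower in macrophages, so these letters were present on either side of the split. A match describes the sequence only.

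In MHC class I too, the surface chains H2-K1, H2-D1 and B2m were shared and part of the peptide supply was lower. Of 35 class I and cross-presentation genes 11 were lower, 1 higher and 10 shared (1 to 11 lower and 1 higher without 1 array). The heavy chains H2-K1 (-0.10) and H2-D1 (0.26) and the light chain B2m (0.28) were shared. Psme2, a subunit of the interferon-inducible proteasome activator, had 8.12 and 8.01 log2 in macrophages, against 9.71 and 10.07 log2 in CD8+ cDC, a difference of -1.83 (SE 0.14, adjusted p = 0.00548), and was the one lower gene of the list called in all 4 fits. The peptide transporter Tap1 (-1.03), its chaperone Tapbp (-1.67) and the immunoproteasome subunits Psmb8 (-1.23) and Psmb9 (-1.10) were lower, with both CD8+ cDC arrays above both macrophage arrays, though Tap1 was called in none of the 4 fits without 1 array. Psmb10, the remaining immunoproteasome subunit, was shared (0.05). Rab34, a GTPase of lysosome positioning and phagosome maturation, was the one gene of the list that was higher, at least 7.43-fold.

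**Figure D4:**
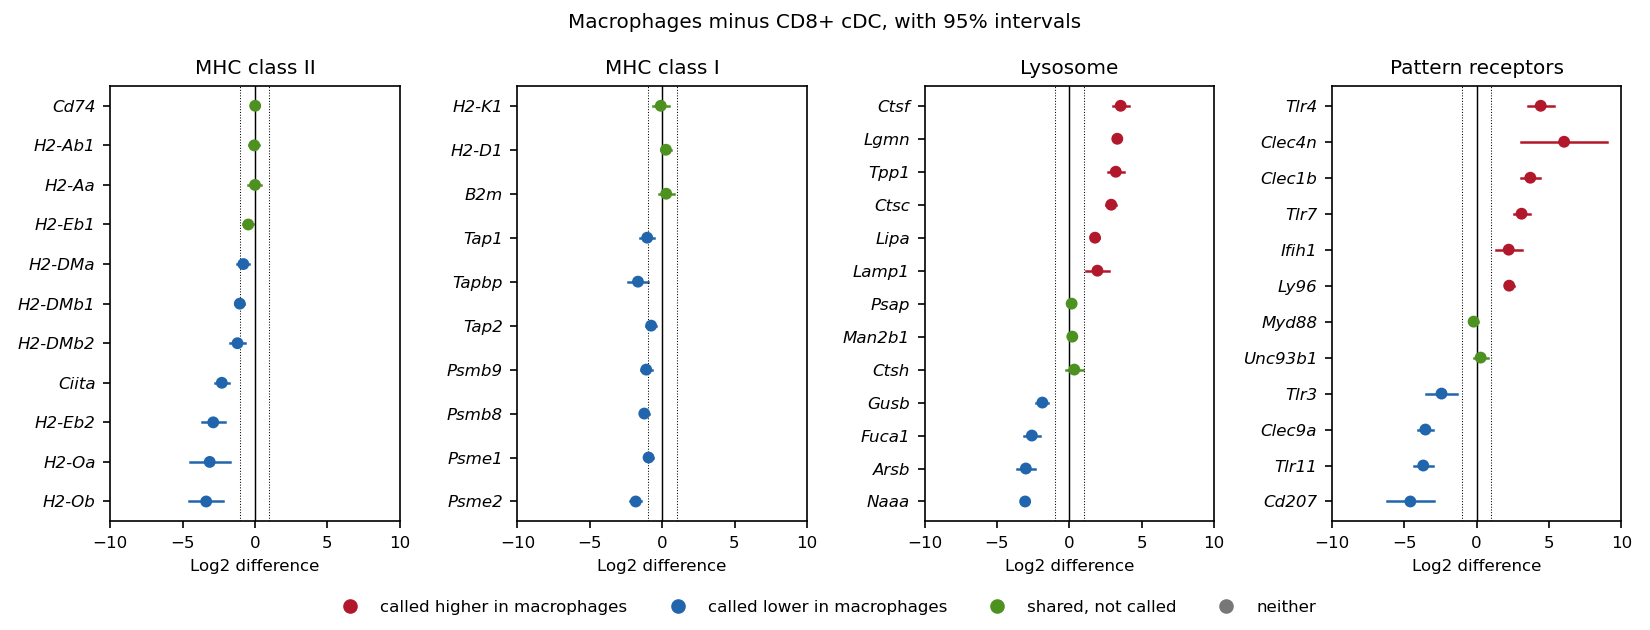
Differences of macrophages minus CD8+ cDC (horizontal axis, log2) with 95% intervals for genes of 4 programmes; red marks genes called higher in macrophages, blue lower and green shared, and dotted lines a difference of 1 log2. In MHC class II, H2-Aa, H2-Ab1, H2-Eb1 and Cd74 lie between -0.46 (H2-Eb1) and 0.02 (Cd74). The beta chain gene H2-Eb2 lies at -2.88, and the DO genes H2-Oa and H2-Ob at -3.13 and -3.37. Lysosomal genes lie on both sides, from Ctsf at 3.54 to Naaa at -3.05.

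Genes of the lysosome were more often higher than lower in macrophages, with some hydrolases on the other side. Over 3 lists with 92 distinct genes, 32 were higher, 8 lower and 12 shared, with a median of 0.60. Lgmn, an asparaginyl endopeptidase, had 13.05 and 13.18 log2 in macrophages, against 9.71 and 9.90 log2 in CD8+ cDC, a difference of 3.31 (SE 0.10, adjusted p = 0.00171), and Ctsc, the protease that activates granule serine proteases, had 13.45 and 13.50 log2 in macrophages, against 10.42 and 10.76 log2 in CD8+ cDC, a difference of 2.89 (SE 0.14, adjusted p = 0.00214). Ctsf was at least 7.02-fold higher. The acid lipase Lipa (1.77), the phospholipase Pla2g15 (4.57) and the membrane protein Lamp1 (1.94) were higher. Naaa, which hydrolyses fatty acid ethanolamides, had 4.90 and 4.83 log2 in macrophages, against 7.86 and 7.98 log2 in CD8+ cDC, at least 6.35-fold lower. Arsb, a sulfatase of dermatan sulfate, had 9.42 and 8.74 log2 in macrophages, against 12.09 and 12.08 log2 in CD8+ cDC, a difference of -3.01 (SE 0.24, adjusted p = 0.0057), and Gusb, the glucuronidase, had 11.37 and 11.27 log2 in macrophages, against 12.998 and 13.38 log2 in CD8+ cDC, a difference of -1.87 (SE 0.16, adjusted p = 0.00656). Each of Naaa, Arsb and Gusb was lower on both macrophage arrays than on either CD8+ cDC array. The fucosidase gene Fuca1 was at least 5.55-fold lower, and the thioesterase gene Ppt1 was lower (-2.57).

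Without 1 array, 2 to 14 of the 38 glycan and lipid hydrolase genes were higher and 4 or 5 lower, and 4 to 6 of the 23 protease genes were higher and 0 or 1 lower. Lgmn, Ctsc, Ctsf, Lipa, Naaa, Arsb, Gusb and Fuca1 kept their calls in all 4 fits. Shared lysosomal genes included Psap, the precursor of the saposins, with 14.30 and 14.23 log2 in macrophages, against 14.03 and 14.18 log2 in CD8+ cDC, the mannosidase gene Man2b1 (0.20), the cathepsin gene Ctsh (0.34) and the cathepsin inhibitor gene Cst3 (0.05). Of 31 genes of the lysosomal membrane and proton pump 8 were higher and 1 lower (2 to 6 higher and 0 or 1 lower without 1 array). Subunits of the pump were also shared, among them Atp6v0b (0.43) and Atp6v1d (-0.13), while Atp6v0a2 was lower (-1.33).

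Of 35 lipoprotein and cholesterol genes 15 were higher in macrophages and none lower (8 to 12 higher without 1 array). Nr1h3, the oxysterol receptor LXR alpha, had 13.22 and 13.53 log2 in macrophages, against 5.63 and 9.06 log2 in CD8+ cDC, a difference of 6.03 (SE 1.19, adjusted p = 0.049). Lpl, the lipoprotein lipase, was at least 48.9-fold higher, Pparg, a fatty acid receptor, was higher (4.50), and so was the apolipoprotein gene Apoe (3.72). Lrp1, a receptor for remnant lipoproteins, had 10.17 and 10.16 log2 in macrophages, against 5.33 and 5.80 log2 in CD8+ cDC, a difference of 4.61 (SE 0.17, adjusted p = 0.00171). Abca1, the cholesterol exporter, was at least 1.95-fold higher and Fabp5, a fatty acid carrier, at least 2.32-fold. Lrp1, Abca1, Lipa and Fabp5 kept the call in all 4 fits. Of 19 genes of sterol synthesis 2 were lower and none higher, 10.5% against 11.8% of all genes. Their median was 0.04, and -0.039 to 0.076 without 1 array.

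Of 26 genes of lipid mediators 5 were higher and 2 lower (2 to 4 higher and 1 or 2 lower without 1 array). Hpgd, which inactivates prostaglandins, had 12.68 and 12.32 log2 in macrophages, against 7.51 and 8.66 log2 in CD8+ cDC, a difference of 4.42 (SE 0.40, adjusted p = 0.00731), and Hpgds, which makes prostaglandin D, was at least 14-fold higher in macrophages. Alox5ap, the activating protein of leukotriene synthesis, had 11.74 and 11.70 log2 in macrophages, against 13.28 and 13.37 log2 in CD8+ cDC, a difference of -1.60 (SE 0.08, adjusted p = 0.00229). All 3 were called in every fit without 1 array. In the oxidant list of 28 genes, 8 were higher, 2 lower and 4 shared (4 to 7 higher and 0 to 2 lower without 1 array). Mgst1, a membrane-bound glutathione transferase, had 10.23 and 10.33 log2 in macrophages, against 5.26 and 5.55 log2 in CD8+ cDC, a difference of 4.88 (SE 0.32, adjusted p = 0.00377), and Txnrd1, the thioredoxin reductase, had 8.79 and 8.53 log2 in macrophages, against 7.18 and 7.08 log2 in CD8+ cDC, a difference of 1.53 (SE 0.14, adjusted p = 0.0071). The oxidase subunits Ncf1 (-1.24) and Ncf4 (-1.72) were lower, and Gpx1 (0.19) and Sod1 (-0.22), which remove peroxide and superoxide, were shared.

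Toll-like receptors differed by member. Of 28 genes of the receptors and their adaptors 9 were higher, 3 lower and 3 shared (4 to 7 higher and 1 to 4 lower without 1 array). Tlr4, the endotoxin receptor, had 10.66 and 10.72 log2 in macrophages, against 5.79 and 6.73 log2 in CD8+ cDC, a difference of 4.43 (SE 0.34, adjusted p = 0.00513), and its partners Ly96 (2.25) and Cd14 (4.63) were higher too. Tlr7, a receptor for single-stranded RNA, had 11.28 and 11.24 log2 in macrophages, against 8.27 and 8.03 log2 in CD8+ cDC, a difference of 3.11 (SE 0.21, adjusted p = 0.004). Tlr3, the receptor for double-stranded RNA, had 6.21 and 5.35 log2 in macrophages, against 8.09 and 8.31 log2 in CD8+ cDC, a difference of -2.42 (SE 0.42, adjusted p = 0.0354). Neither Tlr4, Tlr7 nor Tlr3 had arrays that overlapped between the groups. Myd88, the common adaptor, and Unc93b1, the chaperone of endosomal receptors, were shared, with intervals of -0.49 to 0.08 and -0.20 to 0.77. Irak3, which dampens the pathway, was higher (3.10). Tlr4, Tlr7, Ly96, Irak3 and Tlr11 were called in all 4 fits.

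Of 31 cytosolic sensor and inflammasome genes 10 were higher and 1 lower (2 to 8 higher and 0 or 1 lower without 1 array). Il18 had 12.29 and 12.45 log2 in macrophages, against 8.75 and 9.02 log2 in CD8+ cDC, a difference of 3.48 (SE 0.13, adjusted p = 0.00171), and Casp1, the protease that matures it, had 12.57 and 12.89 log2 in macrophages, against 11.19 and 11.08 log2 in CD8+ cDC, a difference of 1.59 (SE 0.13, adjusted p = 0.00623). Both were called in all 4 fits. The RNA sensors Ifih1 (2.22) and Ddx58 (2.01) and their adaptor Mavs (2.05) were higher, Ifih1 and Ddx58 in none of the 4 fits without 1 array. Of 43 interferon-stimulated genes 12 were higher, 2 lower and 6 shared (5 to 12 higher and 0 to 2 lower without 1 array). Gbp3, a guanylate-binding protein, had 11.27 and 11.61 log2 in macrophages, against 8.43 and 8.63 log2 in CD8+ cDC, a difference of 2.91 (SE 0.15, adjusted p = 0.00227), and Cmpk2, a nucleotide kinase, had 8.60 and 8.62 log2 in macrophages, against 6.35 and 6.29 log2 in CD8+ cDC, a difference of 2.29 (SE 0.15, adjusted p = 0.00377), each in all 4 fits. Ifit3 (3.54) and Rsad2 (2.67), antiviral effectors, were higher. Mx1, also antiviral, was lower (-1.74) but in none of the 4 fits without 1 array, and the GTPase gene Irgm1 (0.14) and the nucleotide hydrolase gene Samhd1 (-0.11) were shared.

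Among 40 C-type lectin receptor genes 8 were higher and 6 lower, and none was shared (4 to 8 higher and 2 to 8 lower without 1 array). Clec4n, which encodes dectin-2, had 13.71 and 14.02 log2 in macrophages, against 6.26 and 9.37 log2 in CD8+ cDC, a difference of 6.05 (SE 1.14, adjusted p = 0.0436), with CD8+ cDC replicate 2 above replicate 1 by over 3 log2. Clec1b, the podoplanin receptor, was at least 10.4-fold higher and Clec4d at least 4.54-fold, both in all 4 fits. Clec4a3 was higher (4.38). Clec1b is also on the list of platelet markers, where its difference (3.71) was the highest. Klri1, an inhibitory receptor gene of the NK gene complex, had 7.45 and 5.67 log2 in macrophages, against 10.31 and 10.79 log2 in CD8+ cDC, a difference of -3.99 (SE 0.61, adjusted p = 0.0246), lower in macrophages as were Cd207, Ly75 and Clec9a.

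Of 35 siglecs and paired receptors 18 were higher, 2 lower and none shared, with a median of 1.07 (7 to 12 higher and 0 to 2 lower without 1 array). Pilra, an inhibitory receptor, had 12.71 and 12.83 log2 in macrophages, against 5.29 and 8.10 log2 in CD8+ cDC, a difference of 6.07 (SE 1.09, adjusted p = 0.0379), and its activating counterpart Pilrb1 was at least 61.8-fold higher. Cd84, a SLAM family receptor, had 10.63 and 10.69 log2 in macrophages, against 6.70 and 7.08 log2 in CD8+ cDC, a difference of 3.77 (SE 0.29, adjusted p = 0.00499), while Slamf7 of the same family had 7.90 and 6.02 log2 in macrophages, against 10.86 and 10.79 log2 in CD8+ cDC, a difference of -3.86 (SE 0.61, adjusted p = 0.0273). The groups did not overlap in either. Lilrb4a, an inhibitory receptor, was higher (2.88). Sirpa, the receptor for CD47 (2.75), and the signalling adaptor Tyrobp (1.07) were higher too. Cd84 and Lilrb4a kept the call in all 4 fits without 1 array. Of 40 genes of leukocytes in general 9 were higher, 5 lower and 12 shared (4 to 8 higher and 1 to 5 lower without 1 array). Only 1 was lower when either CD8+ cDC array was left out. Gngt2, a G protein subunit, had 11.41 and 11.62 log2 in macrophages, against 8.45 and 9.15 log2 in CD8+ cDC, a difference of 2.72 (SE 0.25, adjusted p = 0.00735), and the kinase gene Syk was higher (1.56).

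Costimulatory genes differed in both directions, 6 higher and 7 lower of 35 (2 to 6 higher and 3 to 5 lower without 1 array). Cd200, a ligand that inhibits myeloid cells, had 6.23 and 6.08 log2 in macrophages, against 8.57 and 8.38 log2 in CD8+ cDC, a difference of -2.32 (SE 0.14, adjusted p = 0.00306), and its receptor Cd200r1 was at least 2.66-fold higher in macrophages. Lgals9, a ligand of TIM-3, had 8.74 and 8.45 log2 in macrophages, against 6.66 and 6.28 log2 in CD8+ cDC, a difference of 2.13 (SE 0.21, adjusted p = 0.00871), and Havcr2, the gene of TIM-3, was lower as given above. Cd40 was lower (-2.56), and Cd86, a ligand of CD28, was shared (0.45). Cd200 and Lgals9 were called in all 4 fits.

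Of 64 cytokine and receptor genes 17 were higher, 2 lower and 4 shared (8 to 14 higher and 0 to 3 lower without 1 array). Il1a had 9.04 and 8.99 log2 in macrophages, against 4.41 and 5.17 log2 in CD8+ cDC, at least 13.6-fold higher in macrophages. Csf1r, the receptor that macrophages need to survive, had 13.90 and 14.08 log2 in macrophages, against 8.07 and 10.04 log2 in CD8+ cDC, a difference of 4.93 (SE 0.64, adjusted p = 0.0161). The growth factor gene Igf1 (5.80) and the receptor chains Tgfbr2 (1.71) and Il10rb (1.68) were higher, and the platelet-derived growth factor gene Pdgfc was at least 6.41-fold higher. Il10ra, the other chain of the interleukin 10 receptor, was shared (-0.34), as was Il15 (0.40). Il1a, Pdgfc, Tgfbr2 and Il10rb kept the call in all 4 fits.

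Of 30 chemokine genes 5 were higher and 2 lower, 23.3% together against 11.8% of all genes. Their median difference was -0.041, and -0.061 to 0.040 without 1 array. Ccl24, an eotaxin, was at least 24.3-fold higher in macrophages, and Ccr3, the eotaxin receptor, had 10.60 and 10.46 log2 in macrophages, against 4.76 and 5.34 log2 in CD8+ cDC, at least 37.6-fold higher (adjusted p = 0.00171). Both CD8+ cDC arrays were near background for Ccr3, and it was called in all 4 fits. Of 15 eosinophil, basophil and mast cell markers, Ccr3 was the one called, and 9 were at background on all 4 arrays (1 or 2 higher and 0 to 2 lower without 1 array). Cxcl16, a chemokine that also binds oxidised lipoprotein, had 8.44 and 8.52 log2 in macrophages, against 11.28 and 11.58 log2 in CD8+ cDC, a difference of -2.95 (SE 0.16, adjusted p = 0.00246), lower in all 4 fits. Of 23 chemokine receptor genes 2 were higher and 3 lower (2 higher and 1 to 3 lower without 1 array). Cxcr3 was lower (-2.46) and Ccl19 at least 2.8-fold.

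Integrin chains differed in both directions. Of 42 adhesion genes 8 were higher, 7 lower and 4 shared (3 to 7 higher and 1 to 9 lower without 1 array). Itga9 was at least 47.5-fold higher in macrophages, and Itgb5 had 11.99 and 12.15 log2 in macrophages, against 5.69 and 8.001 log2 in CD8+ cDC, a difference of 5.22 (SE 0.84, adjusted p = 0.0288). Itgal, the alpha chain of LFA-1, had 7.01 and 6.16 log2 in macrophages, against 9.19 and 9.40 log2 in CD8+ cDC, a difference of -2.71 (SE 0.45, adjusted p = 0.0306), and Itgb7, which pairs with Itgae, was lower (-2.40). Itgax, the CD11c gene, was lower (-1.57, adjusted p = 0.0479), and Icam1, a ligand of LFA-1, was shared (0.20). F11r, a junctional adhesion gene, was at least 9.49-fold higher and Jaml, which encodes a related molecule, was lower (-4.02). Among 20 tetraspanins 6 were higher and 3 lower (3 to 6 higher and 2 to 4 lower without 1 array): Cd82 had 13.43 and 13.64 log2 in macrophages, against 11.84 and 11.80 log2 in CD8+ cDC, a difference of 1.71 (SE 0.14, adjusted p = 0.00605), Cd9 had 9.998 and 9.72 log2 in macrophages, against 11.72 and 12.10 log2 in CD8+ cDC, a difference of -2.05 (SE 0.18, adjusted p = 0.00674), and Cd81 was shared (0.28). F11r, Cd82 and Cd9 were called in all 4 fits.

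In endosomal sorting, 10 of 54 genes were higher, 7 lower and 12 shared (2 to 6 higher and 1 to 5 lower without 1 array). Rab3il1, an exchange factor for Rab GTPases, had 9.32 and 10.07 log2 in macrophages, against 4.95 and 5.78 log2 in CD8+ cDC, at least 18.1-fold higher and in all 4 fits. Rab27a, used in secretion of lysosome-related organelles, was lower (-1.10), and so was Rab11a of recycling endosomes (-1.07). Rab7, of late endosomes, was shared (0.21), as were Rab5c (0.40) and the retromer subunit Vps35 (0.15). Of 44 actin and motility genes 18 were shared, 8 lower and 1 higher (0 to 5 lower and 1 higher without 1 array). Coro1a, an actin-binding protein of leukocytes, had 12.26 and 11.09 log2 in macrophages, against 13.62 and 13.64 log2 in CD8+ cDC, a difference of -1.96 (SE 0.38, adjusted p = 0.0485), Fscn1, the actin bundler of mature dendritic cells, was lower (-2.49), and Rhoc was at least 3.67-fold higher in all 4 fits. Fscn1 was called in none of them.

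Some transcription factors differed by lineage. Among those of macrophages 30 of 41 were not called, 17 had negative differences and the median was 0.19. Among those of dendritic cells 24 of 34 were not called, 5 had positive differences and the median was -0.63. Of 41 factors of macrophages 11 were higher and none lower (6 to 8 higher without 1 array). Cebpb had 11.49 and 11.87 log2 in macrophages, against 8.18 and 7.96 log2 in CD8+ cDC, a difference of 3.61 (SE 0.16, adjusted p = 0.00188), Tfec was at least 8.12-fold higher and Ets2 was higher (2.82), all 3 in all 4 fits. Of 34 factors of dendritic cells 9 were lower, 1 higher and 5 shared (2 to 8 lower and 1 higher without 1 array). Cbfa2t3 (-3.20), Zeb1 (-2.01) and Irf4 (-1.54) were lower, whereas Zeb2, the relative of Zeb1, had 10.32 and 10.48 log2 in macrophages, against 7.51 and 7.52 log2 in CD8+ cDC, a difference of 2.89 (SE 0.10, adjusted p = 0.00171), and was the one that was higher. Irf5 (-0.62), Irf1 (0.06) and Ikzf1 (-0.04) were shared.

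Genes of respiration were more often shared than called, and some of glycolysis were lower. Of 46 genes of oxidative phosphorylation 27 were shared, 1 was higher and 2 lower (0 or 1 in either direction without 1 array), with a median of -0.14. In glycolysis 8 of 27 were lower, 1 higher and 6 shared (2 to 8 lower and 0 or 1 higher without 1 array). Aldoc, an aldolase, had 5.49 and 5.05 log2 in macrophages, against 7.79 and 7.92 log2 in CD8+ cDC, at least 5.59-fold lower in macrophages and in all 4 fits, while Gapdh (-0.25) and Pkm (-0.28) were shared. Eno2 was at least 6.81-fold lower and the phosphofructokinase gene Pfkp lower (-2.47). Transporters and enzymes of amino acids moved both ways, 7 higher and 8 lower of 35 (3 to 10 higher and 2 to 11 lower without 1 array). Slc7a8, a transporter of neutral amino acids, had 9.87 and 10.15 log2 in macrophages, against 5.76 and 6.36 log2 in CD8+ cDC, a difference of 3.95 (SE 0.26, adjusted p = 0.00376), and Glul, which makes glutamine, was higher (3.79). Slc1a3, a glutamate transporter, was at least 77.2-fold higher. Ido1, the first enzyme of tryptophan breakdown, had 4.70 and 4.44 log2 in macrophages, against 7.49 and 7.46 log2 in CD8+ cDC, at least 4.66-fold lower, and the next enzymes of that path, Kmo (-2.79) and Kynu (-2.35), were lower as well. Slc7a8 and Ido1 kept the call in all 4 fits.

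Lists of cell division held lower genes and no higher ones. Their median levels in macrophages and CD8+ cDC were 7.49 and 8.36 log2 for S phase genes, and 6.13 and 7.38 log2 for mitotic genes. These medians lay under the level that shared requires, so the lack of shared genes in these lists was not read as a result. Lists of protein production held shared and lower genes and, apart from 1 gene of the endoplasmic reticulum, no higher ones. None of 38 S phase genes was higher and 8 were lower (0 to 10 lower without 1 array), with a median of -0.77 that was -0.96 without macrophage replicate 1 and -0.53 without replicate 2. Mcm5, of the replicative helicase, had 9.88 and 9.23 log2 in macrophages, against 10.97 and 11.15 log2 in CD8+ cDC, a difference of -1.51 (SE 0.23, adjusted p = 0.026), and Cdc45 was lower (-1.56). The share called among 38 mitotic genes, 7.89%, was under the 11.8% of all genes. Of the mitotic genes 3 were lower and none higher, among them Hmgb2 (-2.42). Without CD8+ cDC replicate 1 none was lower, without replicate 2 it was 1, without macrophage replicate 1 it was 14 and without replicate 2 it was 2. Top2a, not called, had 8.37 and 6.87 log2 in macrophages, against 9.33 and 9.38 log2 in CD8+ cDC. Of 55 ribosomal protein genes 33 were shared, 7 lower and none higher (0 to 6 lower without 1 array), and of 38 proteasome genes 18 were shared, 9 lower and none higher (1 to 6 lower). Of 30 translation factors 13 were shared, 5 lower and none higher, with 4 lower without macrophage replicate 1 and none without any 1 of the other 3 arrays. Of 36 genes of the endoplasmic reticulum 9 were shared, 5 lower and 1 higher (0 to 3 lower and 0 or 1 higher without 1 array), with none lower without CD8+ cDC replicate 1 or macrophage replicate 2. In the cell death list of 30 genes, 6 were lower and 2 higher (3 lower and 0 to 2 higher without 1 array). Casp6, an executioner caspase, had 8.50 and 8.43 log2 in macrophages, against 10.44 and 10.59 log2 in CD8+ cDC, a difference of -2.05 (SE 0.11, adjusted p = 0.00229), and Bid, which links death receptors to mitochondria, had 8.80 and 8.81 log2 in macrophages, against 9.88 and 9.70 log2 in CD8+ cDC, a difference of -0.98 (SE 0.10, adjusted p = 0.00879), both in all 4 fits. Mcl1, a survival gene, was shared (0.25). Of 40 immediate early and stress genes 1 was higher, 6 lower and 4 shared (1 or 2 higher and 1 to 4 lower without 1 array), with a median of -0.57 that ran from -0.92 to -0.04 without 1 array. Dusp6 was higher (1.71) and Dusp5 lower (-2.82) in all 4 fits, both being phosphatases of MAP kinases.

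Genes shared at a high level numbered 1019, or 5.35% of all genes. Both means were in the highest 10% for 1485 genes, of which 68.6% met the interval and 19.1% were called, 129 higher and 155 lower, with 57 genes counted as both. The median half-width of the interval of the shared genes was 0.354. The 5 lists of oxidative phosphorylation, ribosome, translation, proteasome and actin, with 213 distinct genes, held 109 shared genes (51.2%), against 2 higher and 31 lower. Laptm5, a lysosomal protein of haematopoietic cells, had 14.21 and 14.20 log2 in macrophages, against 13.78 and 14.23 log2 in CD8+ cDC, and Tmsb4x, which binds free actin, had 14.15 and 14.11 log2 in macrophages, against 13.62 and 14.16 log2 in CD8+ cDC. Itm2b, a transmembrane protein, had 14.48 and 14.34 log2 in macrophages, against 14.25 and 13.76 log2 in CD8+ cDC. In all 3 CD8+ cDC replicates differed more than macrophage replicates. Cd52, a surface glycopeptide, was shared and also called, at 13.66 and 13.74 log2 in macrophages and 14.24 and 14.36 log2 in CD8+ cDC, a difference of -0.60 (SE 0.09, adjusted p = 0.0233), with the call in none of the 4 fits without 1 array. Just inside the limit of the interval were Ldha (-0.998 to -0.53), which was also called, and Rps10 (-0.9997 to -0.25), while Erh (-1.001 to 0.02) and Arpc1a (-1.01 to -0.04) were just outside.

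**Figure D5:**
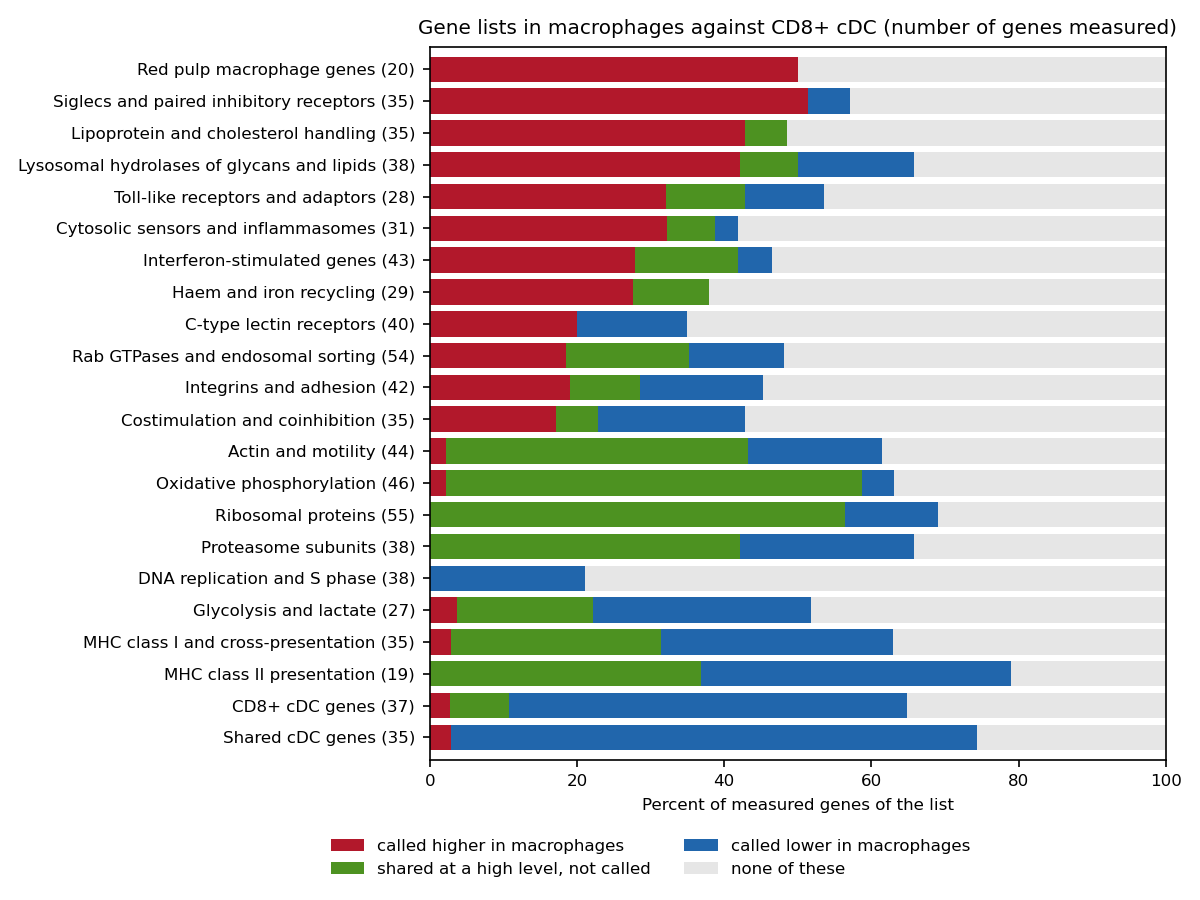
Percent of the measured genes of 22 lists (number of genes in brackets) that were called higher in macrophages, shared and not called, called lower, or none of these. Red pulp genes (10 of 20) and paired receptors (18 of 35) have the widest red bars, oxidative phosphorylation (27 of 46, 26 of them not called) and ribosomal proteins (33 of 55, 31 not called) the widest green, and genes common to cDC (25 of 35) the widest blue.

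Markers of other spleen cells were called in shares below and above that of all genes, and single markers reached a high level. The share called ran from 5.88% of neutrophil markers to 30.8% of platelet markers, against 11.8% of all genes. Of 14 erythroid markers 1 was higher and 1 lower, with a median of 0.85 (0 to 3 higher and 0 or 1 lower without 1 array). Slc4a1, the anion exchanger of red cells, had 12.16 and 9.88 log2 in macrophages, against 8.55 and 6.86 log2 in CD8+ cDC, a difference of 3.32 (SE 1.31, adjusted p = 0.261), and Alas2, the erythroid enzyme of haem synthesis, had 11.19 and 10.19 log2 in macrophages, against 7.86 and 6.92 log2 in CD8+ cDC, a difference of 3.30 (SE 0.86, adjusted p = 0.104). Both macrophage arrays were above both CD8+ cDC arrays, and replicate 1 was the higher one in each group. T cell markers (15) and NK cell markers (16) had 1 lower gene each, and 0 to 2 without 1 array. Monocyte markers (16) and B cell markers (11) had 1 higher gene each, with 0 to 2 higher and 0 or 1 lower monocyte markers and 1 higher B cell marker without 1 array. Of 10 plasma cell markers 1 was higher and 1 lower (none higher and 0 or 1 lower without 1 array). Of 13 platelet markers 3 were higher, among them Pf4 (at least 2.36-fold), and 1 was lower (2 or 3 higher and 0 or 1 lower without 1 array). Of 12 plasmacytoid dendritic cell markers 2 were called, both higher, although the median was -1.39. Without 1 array 0 to 2 were higher and 0 to 2 lower, and the median was -0.46 without CD8+ cDC replicate 1, -2.02 without replicate 2, -1.99 without macrophage replicate 1 and -0.67 without replicate 2. None was called when either CD8+ cDC array was left out. Siglech, the defining one, had 9.05 and 7.68 log2 in macrophages, against 11.42 and 9.05 log2 in CD8+ cDC, a difference of -1.87 (SE 0.88, adjusted p = 0.357), with CD8+ cDC replicate 1 the highest array. Of 17 neutrophil markers 1 was higher (0 to 2 higher and 0 or 1 lower without 1 array) and 7 were at background on all 4 arrays, and S100a8 had 10.27 and 6.88 log2 in macrophages, against 7.78 and 6.06 log2 in CD8+ cDC. Of 22 endothelial and stromal markers 3 were higher, the scavenger receptor gene Stab2, Pecam1 (2.09) and Vwf (0.79), and 13 were at background on all 4 arrays. None of them was called without macrophage replicate 2, 2 were higher without any 1 of the other 3 arrays, and Vwf was called in none of these fits. The part of these cells in the results above was not tested.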

How the data were processed

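Total RNA, prepared with Qiagen RNeasy kits and amplified with biotin labelling per the labels' protocols, was hybridised to Illumina bead arrays. The log2 values deposited by the authors were used as they came. Their base is not stated and was inferred from their range, and 60.5% of values lay under 5 log2. BeadStudio and limma are named, with no version or role, in the submitters' processing notes. The sorted columns of the 6 arrays differed by at most 0.0349 log2, as after quantile normalization, which the labels do not state. A second table with 12 columns whose names match no label was not used here.

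Of 45281 probes, 10378 had no gene symbol, 18 had several and 34885 had 1. Gene IDs of 34807 were found in a table of GRCm38.p6, which changed 0 symbols. For the 9172 genes with more than 1 probe, the brightest over 6 arrays was taken. The fit used limma 3.58.1 (R 4.3.3; lmFit, then eBayes) on all 6 arrays, with a coefficient for each group; it had 3 residual and 1.86 prior degrees of freedom. Every adjusted p is limma's. In data simulated on 45281 probes, 67, 67 and 66 probes with means above background were changed by 1, 2 and 4 log2. Of these, 28.4%, 68.7% and 86.4% were recovered. The noise was normal and independent, with spreads shuffled between probes. Far fewer probes were changed than genes were called here, so these rates need not hold for the data.

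The background level was the 99th percentile of 1597 probes. A minimum fold sets each dimmer array at or under it to that level and then compares the group means. The 59 gene lists had 1823 entries, of which 1678 were measured and 145 had no named probe. Members and lists were chosen with earlier results of these data known, and counts over them are descriptions. Genes named were the 15 highest and 15 lowest called genes with no overlap of arrays, the 20 shared genes with the highest mean, up to 4 called and 2 shared genes per list, and the defining genes. Some of these are not printed, and other list members are given as examples chosen after their values were seen. Alternatives were the 4 arrays alone, the replicate block, median centring, a background filter, limma-trend with robust estimation, other probes and leaving out each array.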

Additional observations from a re-analysis of the deposited data

How the results depend on the processing

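The counts of 1249 genes higher and 1001 lower in macrophages were 916 and 640 with only the 4 arrays compared, 1310 and 941 after median centring, which shifted arrays by -0.033 to 0.022 log2, 1561 and 1358 with the background filter, and 1458 and 1247 with limma-trend. The fit of 4 arrays called 1556 genes, of which 1471 were among the 2250, and it has 1 residual degree of freedom less by construction. Leaving out 1 array gave 511 to 1133 higher genes and 261 to 860 lower genes, the lowest of both without CD8+ cDC replicate 1. The probe with the smallest p gave 1385 and 1272, and a difference of at least 1 log2 gave 1017 and 697. The 1019 shared genes were 827 to 994 without 1 array, 452 with the interval within 1.5-fold and 500 with both means in the highest 5%. With the replicate number as a block, 1426 genes were higher and 1119 lower, and 2020 of the 2250 calls were kept. Replicate differences of macrophages and CD8+ cDC correlated at 0.387, but the labels do not say what a number shares, and with 2 numbers this is no proof of pairing.

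Of the 243 genes named, 185 had a call to lose. Among these, 43 lost their call with only the 4 arrays, 12 with the block, 19 with limma-trend, 3 after centring and 1 with the background filter. Without CD8+ cDC replicate 1 it was 87, without replicate 2 it was 70, without macrophage replicate 1 it was 34 and without replicate 2 it was 62. No named gene with a call turned its sign in these fits. Other probes of a gene turned the sign, none of them called: Arsb (0.10), Ddx58 (-0.17), Fabp5 (-0.052), Fcer2a (-0.363), Lgals9 (-0.0698), Ly75 (0.0203), Tgfbr2 (-0.16 and -0.0876), Zbtb46 (0.0315) and Zeb1 (0.0069). The cause was not tested. Minimum folds of 50 called genes chosen by the naming rules were also taken at a background level of the 95th percentile (4.91 log2). For 15 of them no dimmer array was at or under that level, so no minimum fold applied. Those of the rest rose by a median of 1.16 times, at most 1.27. Signal over background limits the dim side: 8755 genes were at background on all 4 arrays.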
